A study of Mus musculus with 51 samples.

Results

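Genes that cells switch on in answer to interferons were followed in the ventral prostate of mice. The group holds 36 listed genes, and every probe set (the short oligonucleotides on an array that together read 1 transcript) whose only gene symbol is 1 of them was taken. Of the 36 genes, 34 had 46 such probe sets, 26 of them with 1 probe set and 8 with several, out of 12393 genes and 22626 probe sets in all. Isg15, a ubiquitin-like modifier, shares its probe set with another symbol, and Ifi44 had no probe set under that symbol, so neither has intensities here; both are in the promoter counts. After dim probe sets were left out, 26 genes were tested in the table that covers 12 h, 48 h and 15 d, 27 in the table for the days between, and 25 in both.

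The study profiled whole ventral prostate RNA on 51 Affymetrix arrays to separate the marks of a drug's action from the marks of a response to it. RAD001, also called everolimus, inhibits the kinase complex mTORC1, which acts downstream of the kinase AKT1. Treatment lasted 12 h, 48 h, 6 d, 9 d or 15 d, and over these times in order transgenic FVB-AKT1 mice with RAD001 gave 5, 4, 3, 4 and 6 arrays. Transgenic mice with placebo gave 4, 5, 1, 1 and 7 arrays over the same times. Wild type FVB mice with placebo gave 4, 4 and 3 arrays after 12 h, 48 h and 15 d, with none at the other times. All mice were 8 to 10 weeks old and ate a standard diet. The promoter that drives the transgene, the number of founder lines and the dose of RAD001 are not given in the sources used here. There was no wild type group with RAD001, so an action of the drug without the transgene was not measured.

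Type I interferons (alpha and beta) bind a receptor whose kinases JAK1 and TYK2 phosphorylate STAT proteins, among them STAT2, which enter the nucleus with IRF9 as the factor ISGF3. ISGF3 and some IRF proteins bind the interferon-stimulated response element (ISRE), and interferon gamma acts mainly through the gamma-activated site (GAS). The induced proteins include the IFIT family and viperin (Rsad2), which restrain viral RNA and replication, the OAS enzymes, the Mx, GBP and immunity-related GTPases, the sensor Ifih1 and the subunits of the immunoproteasome. Many are also made at a low constant level in tissues without infection.

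Promoter sequences were available from RefSeq (GRCm38.p6) for 30 of the 36 genes, in 37 windows that run from 250 bases before to 50 bases after a transcription start. The ISRE core, GAAA followed by any 2 bases and GAAA, searched on both strands, was present in 14 of these windows (37.8%), which belong to 14 genes, against 1131 of 32851 windows of all genes (3.44%). The GAS core TTCNNNGAA was present in 11 of the 37 windows (29.7%), against 2726 of all windows (8.3%). A match describes the letters in the window, not a bound site. The 150 bases before the start are shown for Ifit1, Rsad2 and Oas1a, 3 of the genes whose levels differed most clearly between the groups, and for Gbp2, a gene with the same core whose difference between genotypes did not keep a direction over time. Ifit2, which lies beside Ifit1 in the family, had no ISRE core in either of its windows. Capitals mark the ISRE core on either strand, and on Oas1a they cover overlapping matches.
Ifit1, chr19:34640739-34640888, plus strand: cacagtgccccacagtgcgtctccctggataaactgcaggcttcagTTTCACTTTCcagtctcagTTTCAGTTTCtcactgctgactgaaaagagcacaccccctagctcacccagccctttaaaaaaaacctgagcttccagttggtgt
Rsad2, chr12:26456453-26456602, minus strand: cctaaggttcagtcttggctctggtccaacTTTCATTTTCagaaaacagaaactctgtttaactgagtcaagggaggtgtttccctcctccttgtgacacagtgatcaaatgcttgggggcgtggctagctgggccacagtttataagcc
Oas1a, chr5:120907526-120907675, minus strand: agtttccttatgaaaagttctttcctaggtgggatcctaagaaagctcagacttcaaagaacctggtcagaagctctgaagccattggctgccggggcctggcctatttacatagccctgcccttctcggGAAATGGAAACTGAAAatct
Gbp2, chr3:142620513-142620662, plus strand: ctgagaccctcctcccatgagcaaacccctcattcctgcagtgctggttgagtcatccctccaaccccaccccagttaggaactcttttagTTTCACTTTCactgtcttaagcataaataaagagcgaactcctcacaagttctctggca
Counted to its first base, the core lay 104 and 85 bases before the start of Ifit1, 120 bases before that of Rsad2, 20 and 14 bases before that of Oas1a and 59 bases before that of Gbp2.

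The larger deposited table and the smaller one for 6 d and 9 d came from different array designs and were tested apart. Probasin, a secretory protein of prostate epithelium, was read at 1560 to 6714 (Pbsn, linear intensity) in the larger table. Of the listed seminal vesicle protein genes, Svs2 and Svs6 had medians of 2.43 and 1.275 there. Svs4, Svs5 and Svs3a had medians of 38.06, 45.15 and 48.41. Akt1 was read by its brightest probe set at 781 to 927 in transgenic against 424 to 671 in wild type placebo arrays at 12 h. The ranges overlapped at 48 h (641 to 870 against 644 to 872) and 15 d (617 to 908 against 717 to 970). A dimmer Akt1 probe set gave 161 to 202 against 39.7 to 87.1 at 12 h, 101 to 239 against 53.6 to 85.2 at 48 h and 25.2 to 210.1 against 106 to 157 at 15 d. It is not known here which of them reads the transgene. Values of exactly 0 occurred among bright probe sets: of 6888 probe sets with a median of at least 200 in the larger table, 1928 values were exactly 0 and 9 lay between 0 and 16. Of the 1335 values of the tested probe sets of the interferon-induced genes, 20 were exactly 0 and 11 of these were in the transgenic placebo group at 15 d. Tests therefore stand in pairs below. In the first, all values under 16 were raised to a floor of 16, and in the second, chosen after these zeros had been seen, values of exactly 0 were left out. At 15 d the arrays also fell into 2 sets along the first principal component, which held 26.1% of the variance. Set A held the 3 wild type arrays, 2 transgenic placebo and 2 RAD001 arrays, and set B the other 5 placebo and 4 RAD001 arrays, so that at 15 d only set A contains both genotypes.

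Ifit1 and Ifit2 encode proteins with tetratricopeptide repeats that hold back the translation of foreign RNA, and they showed the clearest difference between the genotypes. At 12 h Ifit1 was read at 334, 416, 235 and 442 in transgenic placebo glands, against 56.2, 50.2, 33.9 and 80.6 in wild type glands. At 48 h the transgenic values were 476, 307, 0, 824 and 613, against 60.5, 66.7, 133 and 75.0 in wild type glands. At 15 d they were 387, 0, 295, 135, 0, 419 and 297 in transgenic glands, against 39.3, 36.6 and 43.3 in wild type glands. Every transgenic value other than the 3 zeros lay above every wild type value of its time. With zeros left out, which drops 1 transgenic array at 48 h and 2 at 15 d, the log2 difference averaged over the 3 times was 2.76 ± 0.21 (SE), a 6.77-fold higher level, with an adjusted p of 8.97e-13 in limma's moderated test. It was 2.72 at 12 h, 2.71 at 48 h and 2.85 at 15 d, and no change with time was called (genotype by time, adjusted p = 0.965). With zeros at the floor the averaged difference was 2.03 ± 0.49 (adjusted p = 0.00143), called at 12 h (0.023) but not at 48 h (0.13) or 15 d (0.161). Leaving out transgenic placebo replicate 3 at 48 h, which held the 0, gave 2.71 with the floor (0.00528). The 12 h call with the floor was lost without transgenic replicate 2 (0.0557), transgenic replicate 4 (0.0557) or wild type replicate 3 (0.061).

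Ifit2 followed the same order at a smaller size. Transgenic placebo glands gave 118, 127, 81.1 and 151 at 12 h, against 49.1, 67.0, 40.3 and 43.2 in wild type glands. At 48 h transgenic glands gave 133, 174, 201, 185 and 132, against 79.3, 90.4, 78.7 and 86.0 in wild type glands. At 15 d the 7 transgenic arrays were split, with 193, 224, 0, 84.1, 0, 0 and 0, against 79.7, 55.6 and 43.7 in wild type glands. The 4 zeros were in set B, and the 3 transgenic values above 0 exceeded all wild type values. Left without its zeros, Ifit2 was higher by 1.21 ± 0.17 on the log2 scale (2.31-fold, adjusted p = 6.79e-07), and by 1.41 ± 0.33 at 15 d, where the estimate rests on 3 of 7 transgenic arrays. With zeros at the floor the direction at 15 d turned to -0.46 ± 0.57 (adjusted p = 0.591), and the averaged value of 0.59 ± 0.33 did not pass (0.172). Within set A at 15 d, which holds no zero of Ifit2 and 1 of Ifit1, the log2 differences with zeros left out were 3.29 for Ifit1, with 1 transgenic array left, and 1.84 for Ifit2, with 2.

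**Figure D1:**
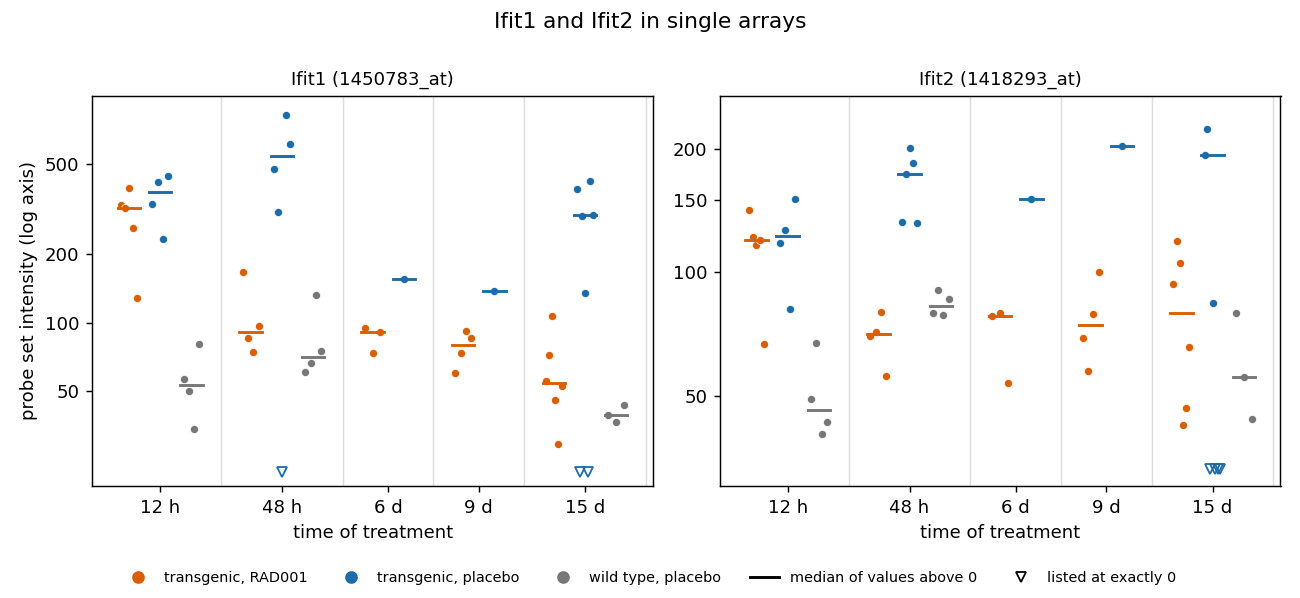
Intensity (log axis) of Ifit1 and Ifit2 in every array, by time and, within a time, with RAD001 left of transgenic placebo and wild type on the right; bars are medians of the values above 0, and open triangles at a fixed height mark values listed at exactly 0. All transgenic placebo values above 0 exceed the wild type values of the same time, and RAD001 values overlap with placebo at 12 h, 1 of 5 lying below all placebo values for each gene, and for Ifit1 lie below the placebo values above 0 at each later time.

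Rsad2 (viperin) and Oas1a, an enzyme that makes oligoadenylates to activate RNase L, were higher in transgenic glands by less, Oas1a when its single 0 was left out. Oas1a was read at 256, 238, 411 and 256 in transgenic placebo glands at 12 h, against 190.2, 175, 177 and 217 in wild type glands. At 48 h it was 262, 235, 271, 289.8 and 277, against 157, 189.9, 214 and 202 in wild type glands. At 15 d it was 263, 261, 264, 301, 0, 256 and 276, against 191, 197 and 202 in wild type glands. The single 0 was in set B, and all other transgenic values exceeded all wild type values at each time. Leaving that 0 out, Oas1a was higher by 0.51 ± 0.07 on the log2 scale (1.42-fold, adjusted p = 8.15e-07), with calls at all 3 times (0.00101, 0.00255 and 0.0111). With the 0 at the floor the averaged value was 0.32 ± 0.26 and did not pass (adjusted p = 0.379). The 15 d call was lost without wild type replicate 1 (0.0636) and within set A, which holds all wild type arrays of 15 d (0.41, adjusted p = 0.192 with zeros left out). At 15 d 1 array, transgenic placebo replicate 8, set the sign: -0.13 with it at the floor and 0.45 with its 0 left out.

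The main Rsad2 probe set held no zero at these 3 times. Its values in transgenic placebo glands were 257, 207, 192 and 227 at 12 h, against 156, 192, 181 and 200.3 in wild type glands. At 48 h they were 268, 206, 347, 261 and 233 against 177, 156, 138 and 190 in wild type glands, without overlap. At 15 d they were 137 to 222 (median 185) over 7 transgenic arrays, against 143, 111 and 118 in wild type glands, and 6 of the 7 lay above all wild type values. Both treatments of zeros called the averaged difference, at 0.51 ± 0.09 on the log2 scale (1.42-fold, adjusted p = 4.95e-05 with the floor). The call stood at 48 h (0.00198) and 15 d (0.00941) but not at 12 h (0.269). Without wild type replicate 3 the 15 d value was 0.56 (0.051). A second probe set of Rsad2 of similar brightness gave 0.19 ± 0.23 (adjusted p = 0.556 with every probe set tested apart), so the 2 probe sets do not give the same result.

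**Figure D2:**
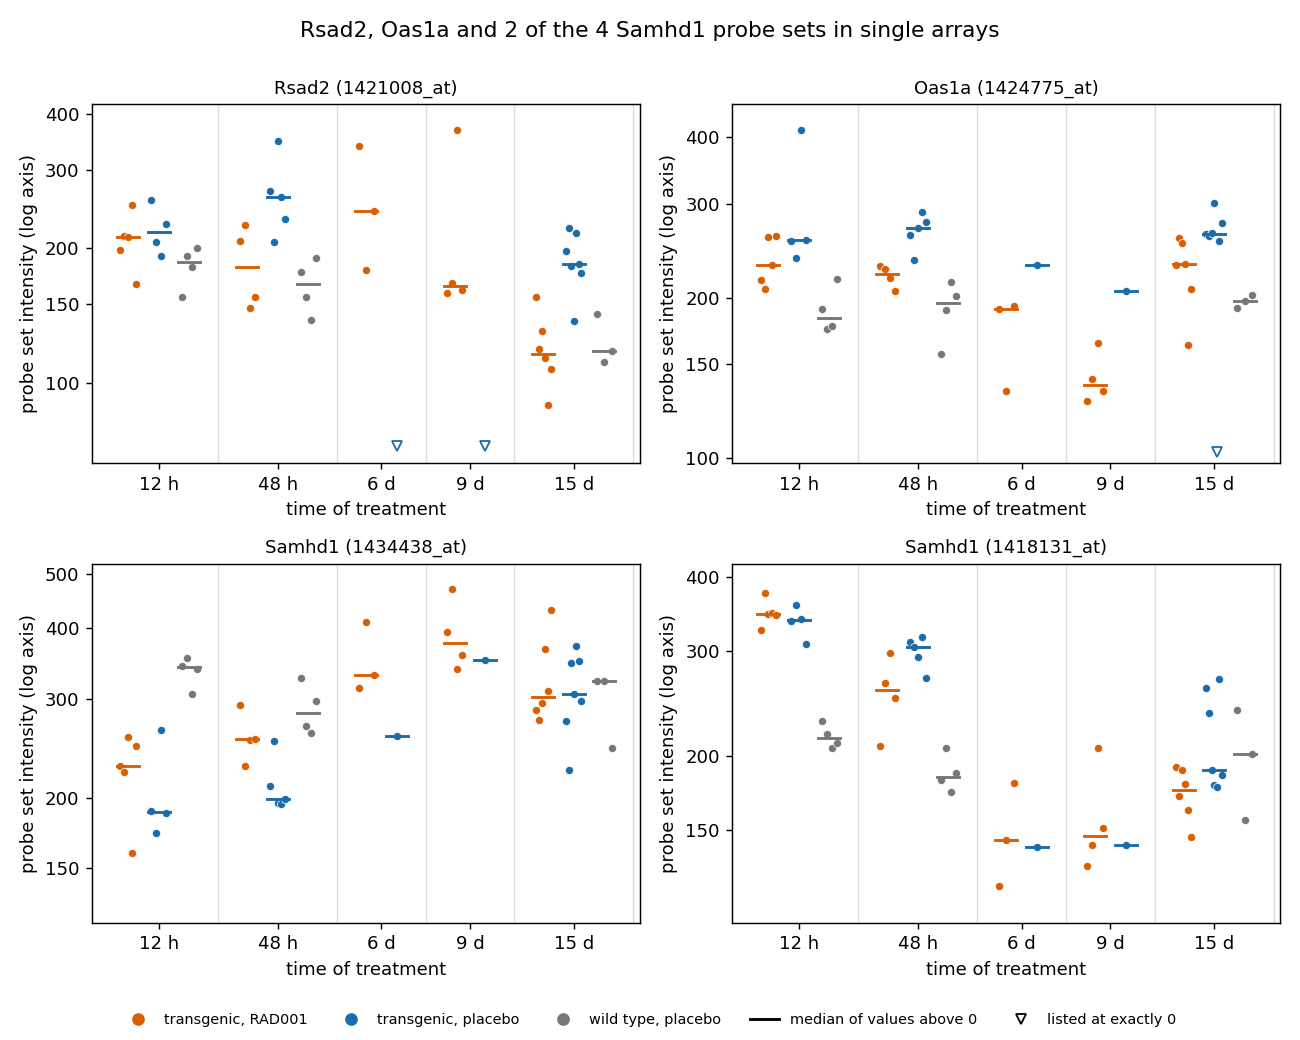
Intensity (log axis) of Rsad2, Oas1a and 2 probe sets of Samhd1 in every array, grouped and marked as in the plot of Ifit1 and Ifit2. Transgenic placebo values of Oas1a above 0 lie above wild type at each time, and the 2 Samhd1 probe sets differ between the genotypes in opposite directions at 12 h and 48 h.

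Across the 26 tested genes the averaged genotype difference was called in 4 with zeros at the floor, 2 higher (Ifit1 and Rsad2) and 2 lower (Mx2 and Samhd1), where 33.5% of all 9627 features were called (14.2% higher, 19.2% lower). With zeros left out it was called in 7, 4 higher and 3 lower, where 40.5% of features were called (17.4% higher, 23.2% lower). The share of interferon-induced genes called, 4 or 7 of 26, was thus below the background, and their median log2 difference was -0.07 beside -0.05 for all features. At single times, with the floor, 1 gene was higher and 3 lower at 12 h (background 9.62% and 11%, 20.6% in all), 2 and 3 at 48 h (12.2% and 14.4%, 26.6% in all) and 1 and 1 at 15 d (9.07% and 10.9%, 19.9% in all). With zeros left out, 3 genes were higher and 4 lower at 12 h, where 26.2% of all features were called. At 48 h 5 were higher and 5 lower, beside 32.6% of all features, and here the share of the genes was above the background. At 15 d 4 were higher and 1 lower, beside 25.7% of all features. The group did not move as a block: 9 of 26 averaged differences were above 0 and 17 below.

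Among the lower genes, Mx2, an Mx GTPase, had 218, 198, 228 and 187 in transgenic placebo glands at 12 h, against 306, 348, 263 and 265 in wild type glands. The groups did not overlap at 12 h, but overlapped at 48 h, with 173, 171, 148, 255 and 251 in transgenic glands against 249, 192, 191 and 255 in wild type glands. At 15 d the transgenic values were 94.4 to 158 (median 134), against 223, 145 and 155 in wild type glands. The averaged difference was -0.35 ± 0.10 on the log2 scale (adjusted p = 0.00625), and the 12 h call held in 3 of 8 fits that left out 1 array. Ifi47, an immunity-related GTPase, was read at 189, 239, 206 and 116 at 12 h in transgenic glands, against 354, 354, 330.2 and 374 in wild type glands. The 12 h groups stood apart, whereas at 48 h transgenic glands gave 204, 198, 216, 193 and 292, against 218, 127, 242 and 199.8 in wild type glands, and at 15 d 166, 216, 147, 156, 0, 207 and 146, against 174, 174 and 211. With zeros left out the 12 h difference was -0.96 ± 0.19 (adjusted p = 0.000207) and it changed over time (genotype by time, adjusted p = 0.00495), and its averaged difference lost its call in 3 of 27 fits that left out 1 array. With the floor the 12 h difference was not called (0.252).

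Samhd1, an enzyme that breaks down deoxynucleotides, gave opposite answers on different probe sets. Its brightest tested probe set read 189, 173, 264 and 188 in transgenic placebo glands at 12 h, against 343, 354, 305 and 339 in wild type glands. At 48 h it read 210, 252, 195, 195 and 199 in transgenic glands, against 326, 268, 261 and 297 in wild type glands. At 15 d the ranges overlapped, with 224 to 371 (median 306) in transgenic glands and 322, 323 and 245 in wild type glands. The averaged difference was -0.38 ± 0.09 (adjusted p = 0.000774), and the 48 h difference was not called without wild type replicate 1 (-0.39, 0.0729). A second probe set read 336, 359, 339 and 308 in transgenic glands at 12 h, against 229, 218, 206 and 211 in wild type glands, again without overlap but the other way round. Its averaged difference was 0.47 ± 0.07 (adjusted p = 2.08e-06 with every probe set tested apart). The other 2 probe sets gave -0.12 ± 0.23 and -0.22 ± 0.23 with zeros at the floor, neither called. Both were listed at 0 in transgenic placebo replicate 8 at 15 d, and their differences without that 0 are not given here. No direction for the gene as a whole follows, and which transcripts each probe set reads was not tested.

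The genotype difference changed with time (an F-test over the 3 times) in 5 of the 26 genes with zeros at the floor, where 20.4% of all features did. Leaving out 1 array at a time gave 1 to 7 genes. Stat2, a subunit of ISGF3, was lower in transgenic glands at 12 h, with 254, 229.7, 264 and 227 against 338, 403, 287 and 261 in wild type glands. At 48 h it was 255, 241, 257, 250.2 and 258 in transgenic glands, against 214, 208, 217 and 236 in wild type glands. All 5 transgenic values at 48 h exceeded the wild type values, the reverse of the order at 12 h. The log2 differences were -0.38 at 12 h, 0.21 at 48 h and -0.10 at 15 d (adjusted p = 0.0156), of which only the 12 h value was called alone (0.00886), and without wild type replicate 2 at 12 h it was -0.27 and not called (0.0771). The dimmer second probe set of Stat2 gave 0.36 ± 0.24 at 12 h and was not called for a change with time (0.368).

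Ifih1, the sensor MDA5 of long double-stranded RNA, had 90.0, 96.5, 74.4, 71.8 and 94.4 in transgenic placebo glands at 48 h, against 114, 129.5, 109 and 93.7 in wild type glands. At 15 d it had 122 to 233 (median 167) in transgenic glands, against 133, 149 and 134 in wild type glands, where the 2 transgenic arrays of set A had 125 and 122. Its log2 differences were 0.20, -0.38 and 0.26 at the 3 times in order (adjusted p = 0.0458 for the change with time). Gbp2, a guanylate-binding protein, had 64.5, 69.3, 83.3, 70.7 and 48.0 in transgenic glands at 48 h, against 95.4, 126, 92.5 and 86.8 in wild type glands, without overlap. At 12 h its transgenic values of 71.6, 60.4, 69.6 and 70.9 also lay below the 73.3, 78.3, 72.2 and 100.4 of wild type glands, narrowly. At 15 d the groups overlapped, with 73.2 to 111 (median 82.3) against 68.2, 83.9 and 46.2. The 111 was read in transgenic placebo replicate 9, whose array held 1092 exact zeros. Without wild type replicate 2 the Gbp2 difference at 48 h was -0.47 and not called (0.0516). Gbp2 has 2 probe sets, and only the brighter is given here. Its differences of -0.24, -0.58 and 0.39 changed with time (adjusted p = 0.0117). Samhd1 (brightest probe set, 0.0228) and Irgm1, a GTPase that guards autophagy (0.0442), were the other 2. With the 15 d arrays of set A alone, the genotype difference changed with time in 2 of the 26 genes, and the share of all features in that fit is not given here.

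Single genes were also called at 1 time. At 48 h Oasl1, an OAS-like protein without enzyme activity, had 165, 178, 177, 219.8 and 182 in transgenic placebo glands, against 119, 149, 156 and 143 in wild type glands, a difference of 0.38 ± 0.14 with no overlap (adjusted p = 0.0393). Psmb8, a catalytic subunit of the immunoproteasome, had 108, 88.5, 72.7, 85.0 and 88.4 in transgenic glands, against 121, 109.8, 112 and 119 in wild type glands at 48 h. Its difference of -0.39 ± 0.14 was called (0.0349) and the groups did not overlap. Leaving out 1 array at a time kept the call of Oasl1 in 3 of 9 fits and that of Psmb8 in 2 of 9. Ifi35, a partner of NMI, had 134, 94.5, 106, 132 and 117 in transgenic glands, against 155, 151, 167 and 141 in wild type glands at 48 h, called with zeros left out (0.0401) but not with the floor (0.0505). At 15 d Irf7, a factor that raises interferon alpha transcription, ranged over 178 to 254 (median 190.1) in transgenic glands, against 297, 228 and 311 in wild type glands. Its difference of -0.43 ± 0.16 was called (0.0489), also in 3 of 10 fits that left out 1 array, and within set A it was -0.18 with zeros left out and not called (0.738).

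RAD001 was compared with placebo in transgenic mice. Under RAD001 Ifit1 and Ifit2 overlapped with placebo at 12 h, Ifit1 lay below the placebo values above 0 at every later time, and few of the other genes were called. This comparison shares its placebo arrays with the comparison of the genotypes. At 12 h Ifit1 had 330.1, 319.9, 390.2, 262 and 128 in RAD001 glands, against the placebo values of 334, 416, 235 and 442. Ifit2 had 142, 122, 116, 119.6 and 66.8 in RAD001 glands, against 118, 127, 81.1 and 151 with placebo. Both genes overlapped between the treatments, with log2 differences of -0.37 ± 0.34 for Ifit1 and -0.08 ± 0.27 for Ifit2. None of the 26 genes was called at 12 h by limma with either treatment of zeros, where 1.48% of features were called with the floor (0.644% higher, 0.831% lower) and 2.34% with zeros left out (1.02% higher, 1.32% lower). Unadjusted p-values under 0.05 numbered 1 with the floor and 3 with zeros left out.

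At 48 h Ifit1 and Ifit2 lay below placebo in all RAD001 glands, other than a single 0 of Ifit1 with placebo. Ifit1 had 168, 85.7, 74.3 and 96.7 in RAD001 glands, against 476, 307, 0, 824 and 613 with placebo. Ifit2 had 70.0, 71.3, 79.9 and 55.7 in RAD001 glands, against 133, 174, 201, 185 and 132 with placebo. The only placebo value that was not above all 4 RAD001 values was the single 0 of Ifit1, and the wild type values at 48 h were 60.5, 66.7, 133 and 75.0 for Ifit1 and 79.3, 90.4, 78.7 and 86.0 for Ifit2. Leaving that 0 out, Ifit1 changed by -2.37 ± 0.36 on the log2 scale (5.17-fold lower, adjusted p = 5.66e-05) and Ifit2 by -1.24 ± 0.27 (2.37-fold lower, 0.00458). With the 0 at the floor neither was called, at -1.36 ± 0.83 for Ifit1 (0.437) and -1.24 ± 0.55 for Ifit2 (0.227); for Ifit2 the 48 h values are the same in both fits, and the residual spread differs through its zeros at 15 d.

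Rsad2 had 208, 226, 147 and 155 in RAD001 glands at 48 h, against 268, 206, 347, 261 and 233 with placebo, so 2 of 4 RAD001 values lay below all placebo values. Its difference was -0.52 ± 0.16, called with zeros left out (0.0404) and not with the floor (0.0561), and it kept the call in 4 of 9 fits that left out 1 array. Oas1a had 229, 226, 217 and 206 in RAD001 glands, against 262, 235, 271, 289.8 and 277 with placebo, without overlap but also without a call (-0.28 ± 0.12, adjusted p = 0.208). In all, 0 of 26 genes were called by limma at 48 h with the floor, where 3.54% of features were called (2.02% higher, 1.53% lower), and 3 had an unadjusted p under 0.05. With zeros left out 3 were called, all lower, where 5.21% of features were called (2.89% higher, 2.33% lower). The test of a change over 12 h, 48 h and 15 d in the RAD001 difference called Ifit1 with zeros left out (adjusted p = 0.0309, background 0.769%) and 0 of 26 genes with the floor (background 0.499%), where Ifit1 had 0.884, 3 genes had an unadjusted p under 0.05 and Ifit2 was not called in either (0.17 with zeros left out).

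At 15 d Ifit1 had 55.5, 71.8, 107, 45.5, 29.3 and 52.7 in RAD001 glands, against 387, 0, 295, 135, 0, 419 and 297 with placebo. Every RAD001 value lay below every placebo value above 0, and the wild type values were 39.3, 36.6 and 43.3. Without its 2 zeros Ifit1 changed by -2.36 ± 0.31 on the log2 scale (5.13-fold lower, adjusted p = 2.94e-06). Within set B the difference was -2.34 (adjusted p = 0.000329), and within set A, where 1 placebo array above 0 remained against 2 RAD001 arrays, it was -2.62. With zeros at the floor the difference was -1.17 ± 0.69 and was not called (0.362).

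Rsad2 at 15 d was the only one of the 26 genes called with the floor under RAD001 at that time, where 5.78% of features were called (2.51% higher, 3.26% lower). Its 6 RAD001 values were 155, 119, 131, 113, 88.9 and 108, against 197, 222, 182, 137, 217, 185 and 176 with placebo. Of the 6 RAD001 values 5 lay below all placebo values. The difference was -0.67 ± 0.13 on the log2 scale (1.59-fold lower, adjusted p = 0.00153), it was called in each of 13 fits that left out 1 array, and it held within set B (-0.70, 0.00391 with zeros left out) but not within set A (-0.62, 0.299), which has 2 arrays of each treatment. The second Rsad2 probe set of similar brightness gave 0.00 ± 0.32. With zeros left out 3 genes were called, Ifit1, Ifit2 and Rsad2, all lower, where 7.44% of features were called (3.02% higher, 4.41% lower).

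The call of Ifit2 at 15 d depends on how its 4 zeros are treated. RAD001 glands had 93.4, 119, 106, 42.4, 46.6 and 65.8, against 193, 224, 0, 84.1, 0, 0 and 0 with placebo, so that 3 placebo values above 0 remained and 1 of them lay among the RAD001 values. Leaving the zeros out gave -1.07 ± 0.29 (adjusted p = 0.0157), without transgenic placebo replicate 1 -0.91 (0.0848), without replicate 2 -0.80 (0.114), within set A -0.98 (0.181) and within set B -0.47 (0.519). With the zeros at the floor the sign turned, to 0.79 ± 0.46 (0.349), and within set B, which holds the 4 zeros, that opposite direction was called (1.45, 0.0108). Oas1a had 231, 259, 253, 231, 163 and 207 in RAD001 glands, against 263, 261, 264, 301, 0, 256 and 276 with placebo, and its difference of -0.29 ± 0.11 was not called (0.104).

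In the separate table of 6 d and 9 d each day had 1 placebo array, and the test averaged both days. Ifit1 had 94.4, 73.3 and 90.8 in RAD001 glands at 6 d, against 156 with placebo, and 60.3, 73.3, 91.6 and 85.8 at 9 d, against 137 with placebo. Ifit2 had 78.3, 79.7 and 53.5 in RAD001 glands at 6 d, against 151 with placebo, and 69.2, 57.4, 79.1 and 100.1 at 9 d, against 203 with placebo. Oas1a had 191, 134 and 193 at 6 d with RAD001, against 230.1 with placebo, and 128, 141, 165 and 134 at 9 d, against 205. For all 3 genes every RAD001 value lay below the placebo value of its day. The same held for Isg20, Mx1, Bst2 and Trim25, and the RAD001 values of Ifi35 lay above placebo on both days. How many of all features show such an order was not counted, and each day rests on 1 placebo array. The order can therefore not be read as particular to these genes. With zeros left out, Ifit2 changed by -1.28 ± 0.25 (adjusted p = 0.0388) and was the only call among 26 genes, where 1.19% of features were called, and it kept that call in 2 of 9 fits that left out 1 array. Ifit1, at -0.85 ± 0.21 (0.0988), and Oas1a, at -0.49 ± 0.19 (0.381), were not called.

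Rsad2 was listed at 0 in both placebo arrays of this table, while RAD001 arrays had 339.6, 179 and 242 at 6 d and 159, 167, 369 and 162 at 9 d. It was the only one of 27 genes called with zeros at the floor, where 0.888% of features were called, and no fold is given because no placebo value remains. A second Rsad2 probe set of similar brightness had 149, 109 and 111 with RAD001 at 6 d, against 110.1 with placebo, and 96.1, 101, 159.6 and 101 at 9 d, against 88.8 with placebo. On that probe set placebo arrays were not at 0 and its difference of 0.24 ± 0.24 was not called (0.881 with every probe set tested apart). Irf1, an interferon-induced transcription factor, was listed at 0 in 1 of the 4 RAD001 arrays at 9 d, which read 521, 484, 0 and 526, against 495 with placebo.

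**Figure D3:**
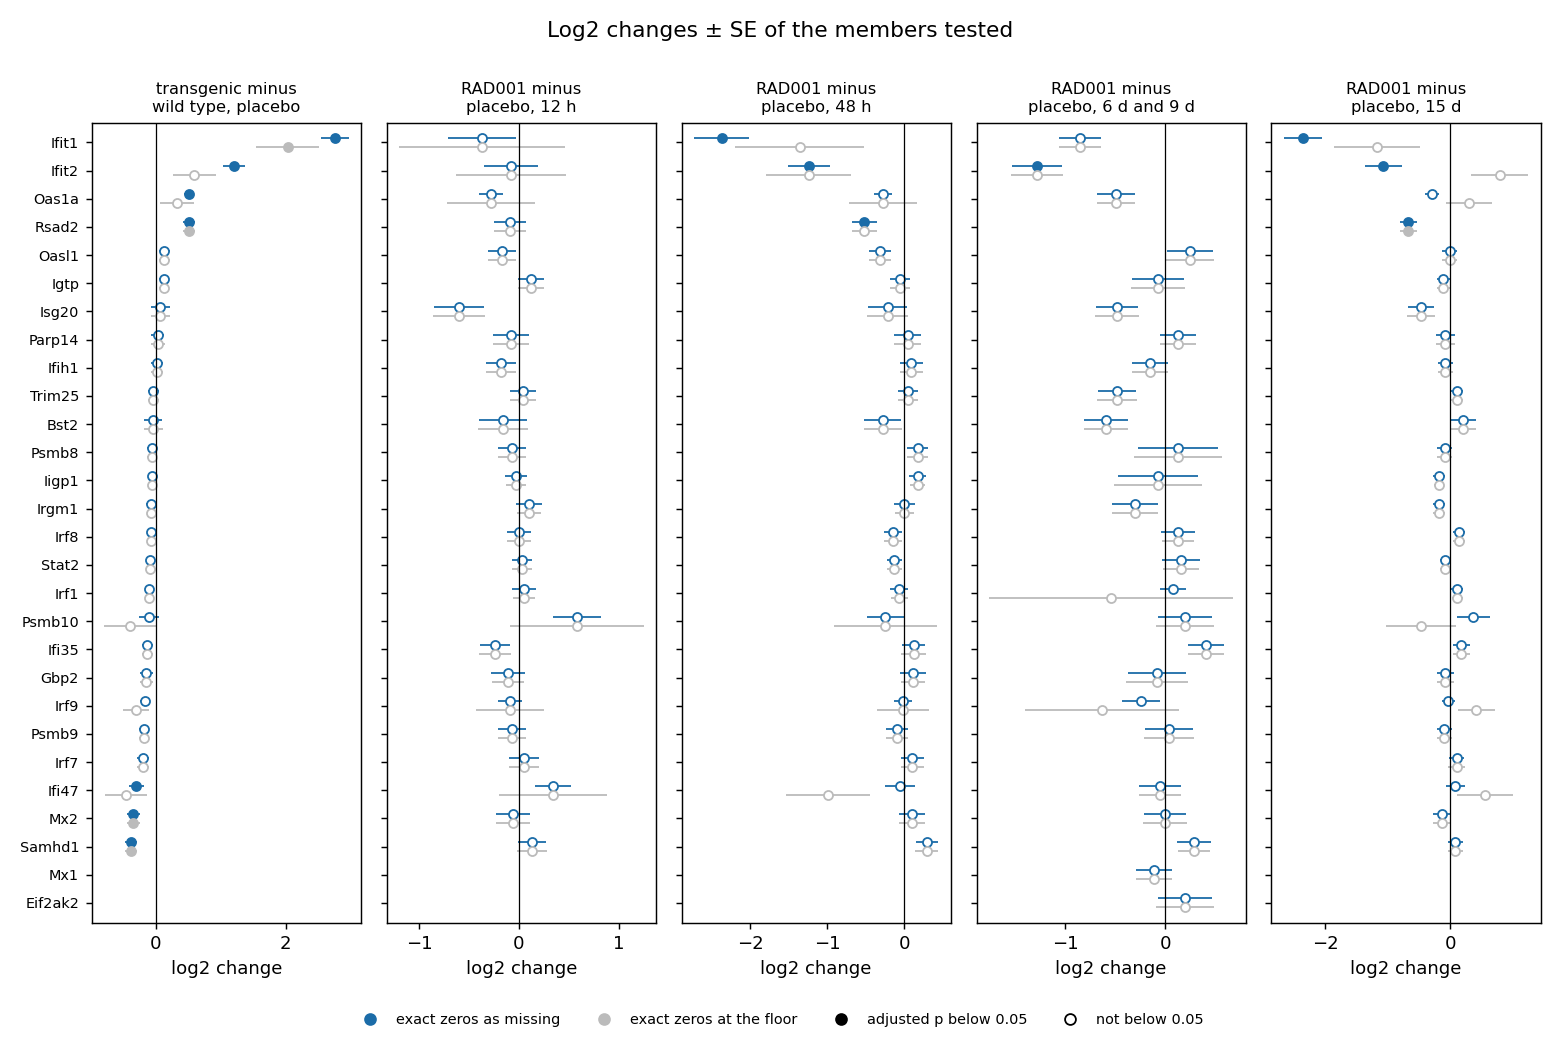
Log2 change ± SE of each tested interferon-induced gene in the comparison of genotypes averaged over 12 h, 48 h and 15 d and in the comparisons of RAD001 with placebo. Blue marks the fits with exact zeros left out and grey those with zeros at the floor, and filled points have an adjusted p below 0.05; Rsad2 is not drawn at 6 d and 9 d, where both placebo arrays list it at 0. Most genes sit near 0, and Ifit1 and Ifit2 stand out above 0 for genotype and below 0 for RAD001 from 48 h on when zeros are left out.

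Apart from Ifit1, Ifit2 and Rsad2, none of the tested genes was called by limma under RAD001 at 12 h, 48 h, 15 d or 6 d and 9 d, with zeros at the floor or left out. Over the 26 genes the median log2 change was -0.07 at 12 h, -0.06 at 48 h and -0.08 at 15 d with the floor, beside 0.02, 0.00 and 0.02 for all features. Over the 27 genes of the 6 d and 9 d table it was -0.07, beside 0.00 for all features. Stat2 was at -0.13 ± 0.10 at 48 h and -0.08 ± 0.08 at 15 d, and Mx2 was at 0.10 ± 0.17 and -0.14 ± 0.14 at these times. Irf7 was at 0.10 ± 0.15 and 0.10 ± 0.13, and Psmb8 at 0.17 ± 0.14 and -0.09 ± 0.12. None of these 4 was called. Irf9, the third subunit of ISGF3, was read at 158, 149, 144 and 126 in RAD001 glands at 48 h, against 117, 150.3, 148, 154 and 165 with placebo, and the groups overlapped. Psmb10, another immunoproteasome subunit, had 119, 118, 119, 121 and 153 in RAD001 glands at 12 h, against at most 97.3 with placebo, a difference of 0.58 ± 0.24 with zeros left out that was not called (0.249). Isg20, an exonuclease for RNA, had 290.3, 227, 249, 162 and 212 in RAD001 glands at 12 h, against 214, 323, 635 and 299 with placebo, and its difference of -0.60 ± 0.26 was not called (0.319). These were the highest and lowest of the 26 changes at 12 h with the floor. Psmb10 was listed at 0 in 3 of 6 RAD001 arrays and in 2 of 7 placebo arrays at 15 d. Irf9, Psmb10 and Isg20 were chosen after their values were seen.

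Levels also differed between the times within a group. Of the 26 genes, 12 did so with RAD001, 17 in transgenic placebo glands and 8 in wild type glands, with zeros at the floor, against backgrounds of 42.3%, 48.2% and 24.4% of features. When zeros were left out the numbers were 12, 17 and 10, against 52.5%, 56.5% and 32.3%. Stat2 was lowest at 15 d in all 3 groups, with 132 to 187 (median 155) with RAD001, 144 to 195 (median 159) with transgenic placebo and 179.5, 166 and 187 in wild type glands. Its log2 step between 48 h and 15 d was -0.56 with RAD001, -0.61 with transgenic placebo and -0.30 in wild type glands. In wild type glands the larger step lay before 48 h (-0.54). Mx2 stepped by -0.82 with RAD001, -0.58 with transgenic placebo and -0.36 in wild type glands between 48 h and 15 d. Ifih1 went the other way, by 0.80, 0.97 and 0.33 in the same order, and Ifi35 rose by 0.46 with RAD001. All these genes were called in the group named by the F-test over the 3 times, which tests no single step.

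Igtp, an immunity-related GTPase, stepped by -0.48 with RAD001 and -0.42 with transgenic placebo between 48 h and 15 d. The F-test over the 3 times gave it adjusted p-values of 0.00027 and 0.00412 in these groups. Under RAD001 Igtp had 177, 214, 187 and 168 at 48 h and 109 to 189.9 (median 127) at 15 d. Irf1 had 492, 539, 613, 599.5 and 620.4 at 48 h in transgenic placebo glands and 365 to 547 (median 418) at 15 d, a step of -0.40. Its adjusted p in the F-test over the 3 times was 0.00418. With the 15 d arrays of set A alone, which leaves 2 arrays of each treatment, 5 of the 26 genes differed between times with RAD001 and 3 with transgenic placebo. The share of all features called in these fits is not given here, so the lower counts cannot be ascribed to these genes. What divides the 2 sets was not tested.

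**Figure D4:**
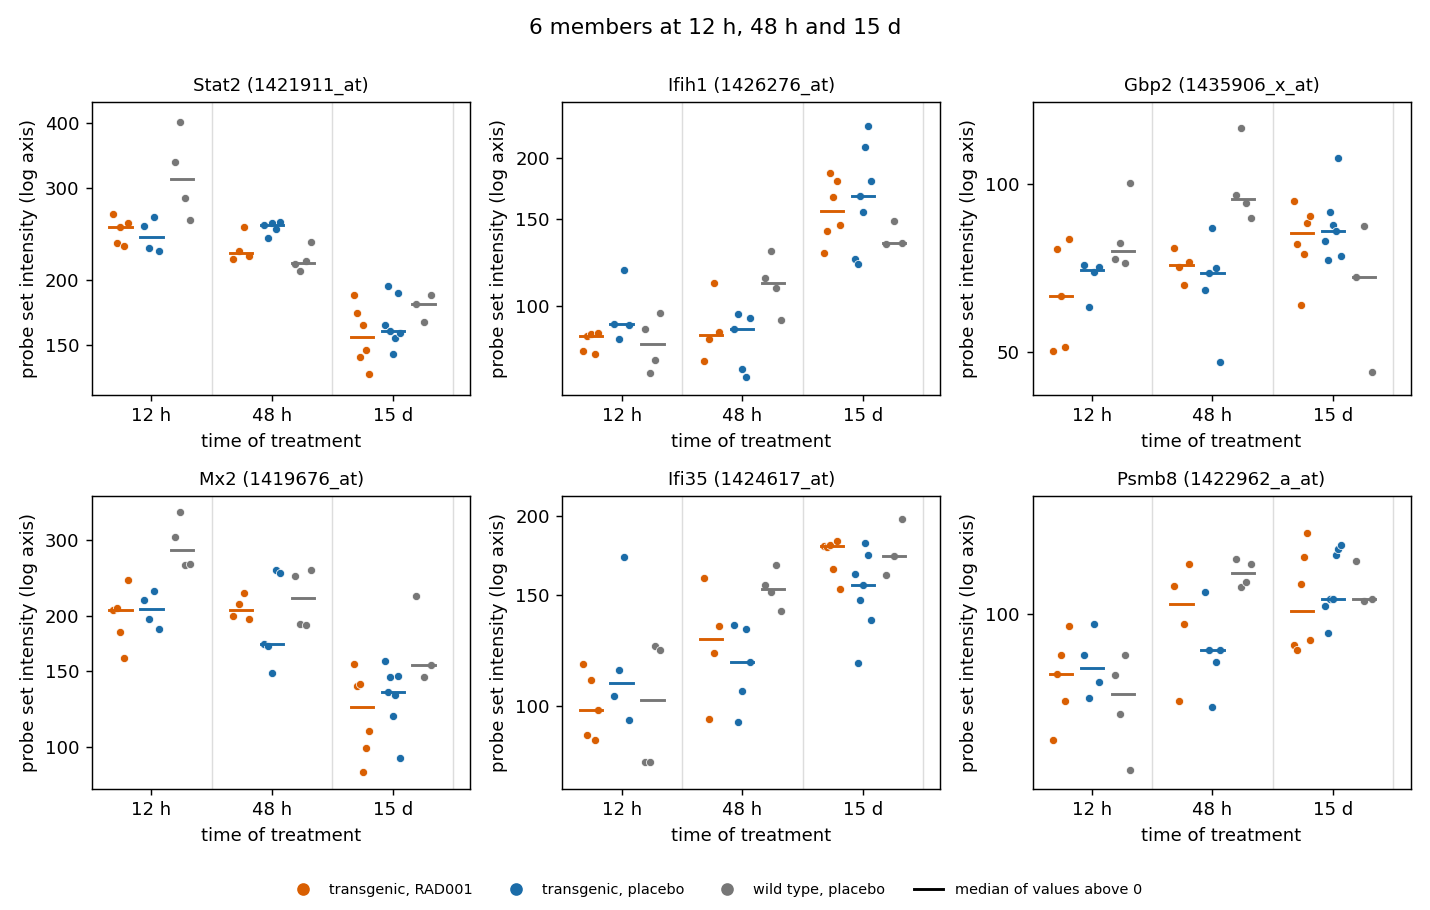
Intensity of Stat2, Ifih1, Gbp2, Mx2, Ifi35 and Psmb8 in every array at 12 h, 48 h and 15 d, with RAD001 left of transgenic placebo and wild type on the right within a time. Stat2 and Mx2 are lower and Ifih1 is higher at 15 d than at 48 h in all 3 groups.

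The dim genes of the group did not pass the filter on mean intensity, although single arrays could be brighter. In the larger table these were Ifit3, Usp18, Oasl2, Mx1, Gbp3, Cxcl10, Eif2ak2 and Ifi204. Ifit3, the third IFIT gene, had 50.9, 50.3, 53.2 and 30.4 in transgenic placebo glands at 12 h, against 53.3, 72.5, 37.3 and 51.8 in wild type glands, and the groups overlapped. Its genotype difference in a fit without the filter was 0.14 ± 0.18 (adjusted p = 0.624). In the same fit Usp18, a protease that removes ISG15 and damps the receptor, was at 0.48 ± 0.18 (0.0409), with 50.3 to 175 (median 71.9) in transgenic placebo glands at 15 d against 38.8, 39.3 and 46.7 in wild type glands, and Mx1 at -0.47 ± 0.12 (0.0028). Cxcl10, a chemokine, had no value above 46.6 in the larger table. These 4 genes were chosen after their values were seen.

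Other genes of the pathway were read from lists and named by the smallest p. Of 11 listed interferon genes 3 were tested, and Ifna1, an interferon alpha gene, was higher in transgenic placebo than in wild type glands by 1.14 ± 0.11 on the log2 scale (adjusted p = 5.27e-10). At 48 h it ran from 259 to 371 (median 334) in RAD001 glands, 442 to 563 (median 509) in transgenic placebo glands and 113 to 165 (median 141) in wild type glands. The 3 groups did not overlap at 48 h, and RAD001 changed it by -0.66 ± 0.19 (0.0419). At 15 d the difference between genotypes was 0.30 ± 0.19 and was not called (0.269). Interferon alpha genes are near-identical copies, so which of them this probe set reads is uncertain.

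Of 35 other genes of the interferon alpha and beta response 20 were tested, and with zeros at the floor 5 were higher and 2 lower in transgenic placebo than in wild type glands, beside 14.2% higher and 19.2% lower of all features. Leaving zeros out gave 5 higher and 6 lower, beside 17.4% and 23.2%. Tor3a, an ATPase of the endoplasmic reticulum, was higher by 0.71 ± 0.08 (3.3e-08), Lgals3bp, a secreted galectin-binding protein, by 0.79 ± 0.12 (1.89e-06) and Parp12, an ADP-ribosyltransferase, by 0.53 ± 0.08 (4.98e-06). Their 48 h values in RAD001, transgenic placebo and wild type glands were 227 to 291 (median 255), 298 to 356 (median 315) and 166 to 189.6 (median 174) for Tor3a. With RAD001 Tor3a changed at 15 d by -0.44 ± 0.12 (0.0194), and Lgals3bp at 6 d and 9 d by -1.23 ± 0.19 (0.0277). The viral entry inhibitor Ifitm3 was higher with RAD001 at 48 h by 0.69 ± 0.20 (0.0435) and at 15 d by 0.76 ± 0.17 (0.00387).

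Among 14 tested receptors, kinases and feedback genes of 15, 2 were lower in transgenic glands and 0 higher in the averaged comparison with the floor and 4 and 0 with zeros left out, beside the same backgrounds (19.2% and 14.2%, 23.2% and 17.4%). By limma 0 were called with either treatment of zeros under RAD001 at 12 h, 48 h, 15 d or 6 d and 9 d. Of 16 genes that sense nucleic acids or pass on that signal 11 were tested in the larger table. In transgenic glands 3 were higher and 1 lower with the floor and 3 and 2 with zeros left out, beside the same backgrounds. The receptor gene Tlr4 changed with RAD001 at 12 h by -0.50 ± 0.13 (0.0409) and at 48 h by -0.52 ± 0.13 (0.0181), and Tlr3, an endosomal receptor for double-stranded RNA, at 15 d by -0.51 ± 0.12 (0.00929). Of 9 other factors 4 were tested, 0 higher and 1 lower with either treatment of zeros. Of 17 other genes of the interferon gamma response 8 were tested, 1 higher and 2 lower with the floor and 1 and 3 with zeros left out. The backgrounds are the same for both lists. Tapbp, which loads peptides on MHC class I, was higher with RAD001 at 15 d by 0.29 ± 0.09 (0.042).

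Markers of several cell types differed between the groups. In bulk tissue fewer cells of a type and less RNA per cell cannot be told apart. Of all features, 14.2% were higher and 19.2% lower in the averaged genotype comparison with the floor, and 17.4% and 23.2% with zeros left out. By genotype at 48 h 12.2% were higher and 14.4% lower with the floor. Under RAD001 1.48%, 3.54% and 5.78% were called at 12 h, 48 h and 15 d with the floor. With zeros at the floor, 7 of 9 tested smooth muscle markers were lower and 0 higher in transgenic placebo than in wild type glands, with summed intensities at 48 h of 7302 to 10700 with RAD001, 4986 to 7111 with transgenic placebo and 9371 to 12650 in wild type glands. Of 6 fibroblast markers 5 were lower, with sums at 48 h of 4800 to 5882 with RAD001, 3312 to 4567 with transgenic placebo and 6151 to 8099 in wild type glands. Of 9 luminal markers 4 were higher and 0 lower, with sums at 48 h of 31350 to 38040 with RAD001, 35240 to 40360 with transgenic placebo and 29620 to 32400 in wild type glands. Both tested basal markers were lower by genotype and higher with RAD001 at 48 h, and 1 of 2 endothelial markers was higher by genotype. With RAD001 at 12 h the smooth muscle sums were 7883 to 11680 against 5244 to 7363 with placebo, without overlap. Leaving zeros out, 9 of 9 smooth muscle, 5 of 6 fibroblast and 2 of 2 basal markers were lower by genotype and 6 of 9 luminal markers higher. The part of cell composition in the differences of the interferon-induced genes was not tested. Leukocytes can also carry these genes. Of 11 tested macrophage and leukocyte markers 0 were higher and 1 lower in the averaged genotype comparison with the floor and 0 and 3 with zeros left out, and 0 were called with RAD001 at 48 h in either. By genotype at 48 h, 1 was higher and 0 lower with the floor, and 1 and 2 with zeros left out. With RAD001 at 15 d, 1 was higher and 0 lower in either. The sums of these macrophage and leukocyte markers at 48 h were 2443 to 3520 with RAD001, 2382 to 2859 in transgenic placebo and 2571 to 2988 in wild type glands. Of 7 tested T, B and NK cell markers 0 were called in the averaged genotype comparison with the floor and 2, both lower, with zeros left out, and 0 under RAD001 at 12 h, 48 h and 15 d in either. No marker of these 2 lists had a median of 0, although that of Cd4 in the smaller table was 8.02, below the floor. The sums of the macrophage and leukocyte markers overlapped between all 3 groups at 48 h and 15 d.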

How the data were processed

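Probe set intensities on a linear scale were used as deposited by the authors. Per the labels' protocols, biotin-labelled cRNA was made from total RNA and hybridised to Affymetrix arrays, and the software and scaling behind them are not given in the sources used here. Over 42 arrays of the larger table medians lay at 91.6 to 109.3, and over 9 arrays of the smaller one at 98.1 to 110.4. Precision is limited by how many arrays a group holds. The labels call the arrays biological replicates. Gene symbols came from the platform annotation, in which 20380 of 22626 probe sets had 1 symbol, 691 several and 1555 none. Of the larger set of arrays, 2 probe sets with values beyond a scanner's range were left out.

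Intensities below 16 were raised to 16 and log2 was taken. Probe sets under the 40th percentile of mean log2 were left out and the probe set with the highest mean was kept for each gene. Group means were fitted over each whole table with limma 3.58.1 (lmFit and eBayes with an intensity trend) in R 4.3.3, with Benjamini-Hochberg adjustment over all features and a threshold of 0.05, and the script was tested on simulated data. The main tests treated exact zeros as values below the floor, and fits that left them out were added after the zeros had been seen. The other alternatives were another floor, other filters, other scaling, array weights, a replicate block, each array left out and the 2 sets of 15 d arrays. Values in every array are given for genes called in any of 13 results, at most 14 with the smallest p, and for the 4 with the widest range in a group, and at most 4 other pathway genes are named per comparison. The genes of the group, the pathway lists and the marker lists were chosen with earlier results of these data known.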

Additional observations from a re-analysis of the deposited data

Results flagged for a closer look

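Single arrays stood far from the rest of their group in 9 of 143 sets of values tested with Dixon's criterion, which chance alone exceeds in about 1 group in 20. Rsad2 read 369 in RAD001 replicate 3 at 9 d, where the other 3 arrays had 159 to 167, and in the same array Irf1 was listed at 0. Oas1a read 411 in transgenic placebo replicate 3 at 12 h and was listed at 0 in transgenic placebo replicate 8 at 15 d. Ifi47 read 292 in transgenic placebo replicate 5 at 48 h and was listed at 0 in transgenic placebo replicate 8 at 15 d. Gbp2 read 111 in transgenic placebo replicate 9 at 15 d, Igtp read 264 in RAD001 replicate 4 at 12 h, and Samhd1 (its brightest probe set) read 252 in transgenic placebo replicate 2 at 48 h.

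The difference between the genotypes changed with time in 5 genes by limma's F-test with zeros at the floor, with adjusted p-values of 0.0117 for Gbp2, 0.0156 for Stat2, 0.0228 for Samhd1, 0.0442 for Irgm1 and 0.0458 for Ifih1.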

How the results depend on the processing

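With zeros at the floor, the numbers of interferon-induced genes called were 2 higher and 2 lower for genotype averaged, 1 and 3 at 12 h, 2 and 3 at 48 h, and 1 and 1 at 15 d. RAD001 had 0 and 0 at 12 h and at 48 h, 0 and 1 at 15 d, and 1 and 0 at 6 d and 9 d. Genotype by time had 5, RAD001 by time 0, and time 8 in wild type, 17 in transgenic placebo and 12 in RAD001 glands. Only counts that moved by more than 1.5 times follow. Quantile normalization moved none of them. Exact zeros left out gave 4 higher for genotype averaged, 3 at 12 h, 5 higher and 5 lower at 48 h, 4 higher at 15 d, 3 lower for RAD001 at 48 h and 3 at 15 d, 1 for RAD001 by time, and 0 higher and 1 lower at 6 d and 9 d. A floor of 64 gave 4 higher averaged, 2 at 12 h, 4 higher and 5 lower at 48 h, 2 higher at 15 d, 2 lower for RAD001 at 48 h and 2 at 15 d, and 0 higher and 1 lower at 6 d and 9 d. The 60th percentile filter gave 1 higher averaged, 0 at 12 h, 1 higher and 1 lower at 48 h, 1 lower for RAD001 at 48 h, 2 for genotype by time, 3, 8 and 7 for time in wild type, transgenic placebo and RAD001 glands, and 0 higher at 6 d and 9 d. No filter gave 2 higher and 0 lower at 15 d, median scaling 0 lower at 15 d, and all probe sets tested apart 3 higher at 12 h.

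Array weights gave 4 higher and 4 lower averaged, 2 higher and 5 lower at 12 h, 4 higher and 5 lower at 48 h, 1 lower for RAD001 at 48 h and 9 for genotype by time. Fitting the compared groups alone gave 3 higher at 12 h, 5 higher and 5 lower at 48 h, 0 and 0 at 15 d, 1 lower for RAD001 at 48 h and 11 for time in transgenic placebo glands. Without the arrays that hold over 500 exact zeros there were 4 higher averaged, 2 at 12 h, 5 lower at 48 h, 2 higher and 0 lower at 15 d, and 3 for genotype by time. Set A alone at 15 d gave 4 higher averaged, 2 higher and 0 lower at 15 d, 0 lower for RAD001 at 15 d, 2 for genotype by time, and 3 and 5 for time in transgenic placebo and RAD001 glands. Set B alone gave 1 higher for RAD001 at 15 d and 1 for RAD001 by time. The array set as a block gave 2 higher at 12 h, 5 lower at 48 h, 0 lower at 15 d, 1 lower for RAD001 at 48 h, 3 for genotype by time, and 3 and 7 for time in transgenic placebo and RAD001 glands. The cause of these moves was not tested.

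With the replicate number as a block there were 4 higher averaged, 3 at 12 h, 5 lower at 48 h, 2 higher and 0 lower at 15 d, 1 lower for RAD001 at 48 h, 2 for genotype by time, 9 for time in transgenic placebo glands, and 0 higher at 6 d and 9 d. Deviations from the group means had a mean correlation of -0.00219 over 125 pairs of arrays with the same number in the larger table. Single pairs there ranged from -0.25 to 0.478, and the mean was 0.121 over 3 pairs in the smaller table. Arrays with different numbers had means of 0.000542 and -0.0366. A mean correlation cannot decide whether some of the numbers pair samples.

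Leaving out 1 array at a time gave 2 to 3 higher and 2 to 3 lower averaged, 0 to 1 and 1 to 3 at 12 h, 1 to 2 and 1 to 4 at 48 h, and 0 to 3 and 0 to 2 at 15 d. RAD001 gave 0 to 0 and 0 to 0 at 12 h, 0 to 0 and 0 to 1 at 48 h, 0 to 0 and 1 to 1 at 15 d, and 1 to 1 and 0 to 0 at 6 d and 9 d. The ranges were 1 to 7 for genotype by time, 0 to 0 for RAD001 by time, and 6 to 9, 14 to 18 and 8 to 13 for time in wild type, transgenic placebo and RAD001 glands.

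Signs turned in 3 single-gene results. Ifit2 between genotypes at 15 d, -0.46 with zeros at the floor, became 0.436 with a floor of 64, 0.813 with the replicate block, 0.104 without the arrays with over 500 zeros, 1.41 with zeros left out, 1.84 in set A and 1.01 with the array set as a block. Oas1a between genotypes at 15 d, -0.13, became 0.158, 0.553, 0.47, 0.454, 0.414 and 0.226 in the same order, 0.316 with array weights and, over arrays left out in turn, -0.252 (without transgenic placebo replicate 6) to 0.454 (without replicate 8). Ifit2 under RAD001 at 15 d, 0.79, became -0.175 with a floor of 64, -0.228 with the replicate block, -1.07 with zeros left out and -0.979 in set A. With zeros left out, the averaged genotype differences of Ifit1 (2.69 to 2.85), Ifit2 (1.12 to 1.35), Oas1a (0.45 to 0.54) and Rsad2 (0.47 to 0.55) stayed called in all 27 fits that left out 1 array, as did Ifit1 under RAD001 in all 9 at 48 h and all 13 at 15 d. Over all single-gene results and settings, 392 kept their sign and side of the threshold, 68 newly passed it, 21 no longer passed it and 17 turned sign as given above, and over arrays left out 837, 11, 80 and 1. Dim probe sets near the floor cannot show small changes.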

Other observations

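Another set of interferon-induced genes, chosen after the values were seen, stood out in a single gland. RAD001 replicate 3 at 6 d had the highest reading of the 9 arrays of its table for 11 of the 27 tested genes, whereas 13.2% of the 13959 probe sets that reach 100 were highest there. In that array Psmb8 read 310.3, against 67.7 to 137 in the other 8, Iigp1 293, Igtp 240.2, Psmb9 237 and Irgm1 175. These are subunits of the immunoproteasome and immunity-related GTPases. Ifit1 read 90.8 and Ifit2 53.5 in the same array, within the range of the other RAD001 arrays for Ifit1 and below it for Ifit2. The summed macrophage and leukocyte markers were 3885 there, the highest of the 9 arrays, and those of T, B and NK cells 649.5. Their part in the readings was not tested.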
